A study of Mus musculus with 24 samples.

Results

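A set of 44 cell cycle genes was followed in CT26 cells labelled as Sun1 knockout and in control CT26 cells: 22 genes of DNA replication, expressed around the entry into S phase, and 22 genes of mitosis. The genes were taken by symbol from a fixed list, and all 44 were found among the 35976 genes of each library. CT26 is a mouse colon carcinoma line that grows in BALB/c mice, and SUN1 is an inner nuclear membrane protein of the LINC complex, which joins the nucleus to the cytoskeleton. The 24 libraries of mRNA came from a Sun1 knockout line and from control line 2 and control line 1, which are both labelled wild type. Whole tumors, taken 14 days after the cells were placed under the skin of the right flank, gave 7 knockout and 8 control line 1 libraries. Tumor cells that a kit for isolating mouse tumor cells had separated from dissociated tumors gave 2 libraries of the knockout, 2 of control line 2 and 2 of control line 1. Cells cultured in RPMI with serum gave 1 library of each line. The labels name 1 knockout line and do not say how it was made or whether it is a clone, so the change to Sun1 and whatever else sets that line apart cannot be told apart. They also do not say whether each tumor library is a separate animal, so the p-values speak of the spread among these libraries, which may be technical.

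Replication genes and mitotic genes are switched on in turn as a cell divides. As background, E2F factors, released from the retinoblastoma protein late in G1, drive the genes for the MCM helicase, its loaders Cdc6 and Cdt1, the enzymes that make deoxynucleotides and the E cyclins. The MuvB complex with B-Myb and FoxM1 then drives the mitotic cyclins, kinases, kinesins and checkpoint genes through a promoter element named CHR and nearby CCAAT boxes, which NF-Y binds. Levels of both sets are commonly read as a sign of how many cells of a population are dividing.

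Total expected counts were 14140769 to 24651279 in tumors, 17068356 to 22593612 in purified cells and 18832201 to 20716917 in culture. Levels are given as CPM, a gene's count relative to the total of its library, after scaling between libraries. Sun1 itself measured 50.5 to 64.8 CPM in knockout tumors and 169 to 192 CPM in control tumors. In purified cells it measured 50.9 and 55.5 CPM in the knockout, 165 and 167 CPM in control line 2, and 174 and 214 CPM in control line 1. In culture the values were 33.7 CPM in the knockout, 109.7 CPM in control line 2 and 122 CPM in control line 1. The knockout libraries were the lower ones in each setting but still held Sun1 transcript. The labels do not say which part of the gene was altered, and the protein was not measured. Of 8 markers of colon epithelium, Epcam, Vil1 and Muc2 averaged under 1 CPM in all 8 groups. Krt20 averaged 1 CPM or more in every group, and Cdx2 in all but purified control line 2. The 8 markers summed to 40.0 to 85.8 CPM in knockout tumors and 85.7 to 180 CPM in control tumors. Purified cells held 99.7 to 105 CPM in the knockout and 102 to 207 CPM in the control lines. Cultured cells held 116 CPM in the knockout, 172 CPM in control line 1 and 224 CPM in control line 2. Krt18, a keratin of simple epithelia, measured under 1 CPM in all knockout libraries, 7.79 to 12.8 CPM in control tumors and 27.8 CPM or more in control cells. The tumor libraries also hold host cells. The 12 leukocyte markers summed to 451 to 951 CPM in knockout tumors and 322 to 779 CPM in control tumors, and to at most 11.7 CPM in any purified or cultured library. The 5 skeletal muscle markers summed to 2.42 to 99.2 CPM in knockout tumors and 1.15 to 12.1 CPM in control tumors, and 1 of the 2 purified knockout libraries stood apart from the other, with 31.2 CPM against 3.07 CPM.

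The promoters of the 2 sets differ in their letters. RefSeq promoters of build GRCm38.p6, each 250 bases before to 50 bases after a gene start, were matched by symbol for 18 of the 22 replication genes and 18 of the 22 mitotic genes, with no entry for Mcm4, Gins2, Rfc2, Ccne2, Ccna2, Aurkb, Kif20a and Tpx2. They were searched on both strands for E2F letters (TTTCCCGC, TTTCGCGC, TTTGCCGC or TTTGGCGC), for CHR letters (TTTGAA or TTCGAA, of which TTCGAA reads the same on both strands) and for CCAAT. The 6 sequences below were chosen because they belong to the 3 replication genes with E2F letters and the 3 mitotic genes with both CHR and CCAAT letters that had the highest mean TPM. Each is written 5′ to 3′ on the strand of its gene. Capitals mark E2F letters in the first 3, from Mcm7 (chr5:138171834-138172133, minus strand, 1 of 2 listed promoters), Mcm6 (chr1:128359656-128359955, minus strand) and Mcm3 (chr1:20820263-20820562, minus strand). In the other 3, from Ube2c (chr2:164769679-164769978, plus strand), Cdc20 (chr4:118437294-118437593, minus strand) and Top2a (chr11:99024140-99024439, minus strand), they mark CHR and CCAAT letters.
Mcm7: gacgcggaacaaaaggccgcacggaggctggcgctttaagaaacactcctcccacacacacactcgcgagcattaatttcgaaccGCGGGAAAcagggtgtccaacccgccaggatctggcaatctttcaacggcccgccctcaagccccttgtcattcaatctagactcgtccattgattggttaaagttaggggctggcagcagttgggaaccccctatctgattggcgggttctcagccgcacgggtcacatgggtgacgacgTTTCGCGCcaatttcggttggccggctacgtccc
Mcm6: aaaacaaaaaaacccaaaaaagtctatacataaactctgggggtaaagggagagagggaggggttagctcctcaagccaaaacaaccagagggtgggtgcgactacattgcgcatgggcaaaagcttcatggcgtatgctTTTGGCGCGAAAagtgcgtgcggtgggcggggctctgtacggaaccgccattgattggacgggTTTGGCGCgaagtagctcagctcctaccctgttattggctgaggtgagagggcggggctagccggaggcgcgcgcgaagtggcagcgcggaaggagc
Mcm3: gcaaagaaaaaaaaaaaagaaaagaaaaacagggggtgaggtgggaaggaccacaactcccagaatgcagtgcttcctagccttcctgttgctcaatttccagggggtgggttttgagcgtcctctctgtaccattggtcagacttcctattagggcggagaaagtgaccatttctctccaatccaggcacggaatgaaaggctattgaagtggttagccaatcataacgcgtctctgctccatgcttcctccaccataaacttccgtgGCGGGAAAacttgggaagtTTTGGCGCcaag
Ube2c: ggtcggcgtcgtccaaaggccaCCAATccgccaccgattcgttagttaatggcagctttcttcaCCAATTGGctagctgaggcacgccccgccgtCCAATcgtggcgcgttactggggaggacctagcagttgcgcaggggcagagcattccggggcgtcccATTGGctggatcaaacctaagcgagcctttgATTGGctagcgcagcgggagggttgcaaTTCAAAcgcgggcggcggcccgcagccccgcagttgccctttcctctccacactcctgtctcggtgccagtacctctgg
Cdc20: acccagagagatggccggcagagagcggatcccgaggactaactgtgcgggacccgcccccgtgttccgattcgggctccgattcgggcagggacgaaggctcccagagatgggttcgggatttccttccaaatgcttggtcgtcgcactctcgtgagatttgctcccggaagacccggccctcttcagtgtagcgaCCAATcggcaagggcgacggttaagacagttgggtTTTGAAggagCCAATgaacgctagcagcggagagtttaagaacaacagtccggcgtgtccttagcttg
Top2a: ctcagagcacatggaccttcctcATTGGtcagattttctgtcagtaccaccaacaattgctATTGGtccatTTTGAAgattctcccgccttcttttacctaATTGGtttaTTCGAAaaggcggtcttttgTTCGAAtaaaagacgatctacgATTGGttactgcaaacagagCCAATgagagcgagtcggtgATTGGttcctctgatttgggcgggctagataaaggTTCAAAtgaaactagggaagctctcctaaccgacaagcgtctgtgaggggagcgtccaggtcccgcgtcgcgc

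In Mcm6, which encodes a subunit of the helicase, TTTGGCGC at 110 to 103 bases before the start overlaps GCGCGAAA, a match on the other strand, at 106 to 99 bases before it, and a further TTTGGCGC lies at 47 to 40 bases before the start. In Cdc20, the activator of the anaphase-promoting complex, TTTGAA lies at 18 to 13 bases before the start between CCAAT boxes that begin at 53 and 8 bases before it. In Ube2c, which encodes the ubiquitin-conjugating enzyme of that complex, CCAAT at 186 to 182 bases before the start overlaps ATTGG, its reverse complement, at 183 to 179 bases. Top2a, which encodes the topoisomerase that disentangles sister chromatids, held 4 CHR matches.

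E2F letters were found in the promoters of 7 of 18 replication genes (38.9%), namely Mcm3, Mcm5, Mcm6, Mcm7, Cdc6, Cdt1 and Uhrf1, and of 1 of 18 mitotic genes (5.56%), Cdk1. Of all 27025 genes with a listed promoter, 704 held them (2.61%). A gene was counted if any of its listed promoters held the letters. CHR and CCAAT letters stood together for 14 of 18 mitotic genes (77.8%) and for 3 of 18 replication genes (16.7%, Mcm2, Mcm7 and Cdc45). Among all genes the share was 8.61%. CCAAT by itself is common: it was found for 88.9% of mitotic genes, 61.1% of replication genes and 41.1% of all genes. The mitotic genes with a listed promoter but no CHR letters were Ccnb1, Birc5, Cenpe and Nusap1. A match is a description of letters, and these promoters carry no measurement of binding.

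**Figure D1:**
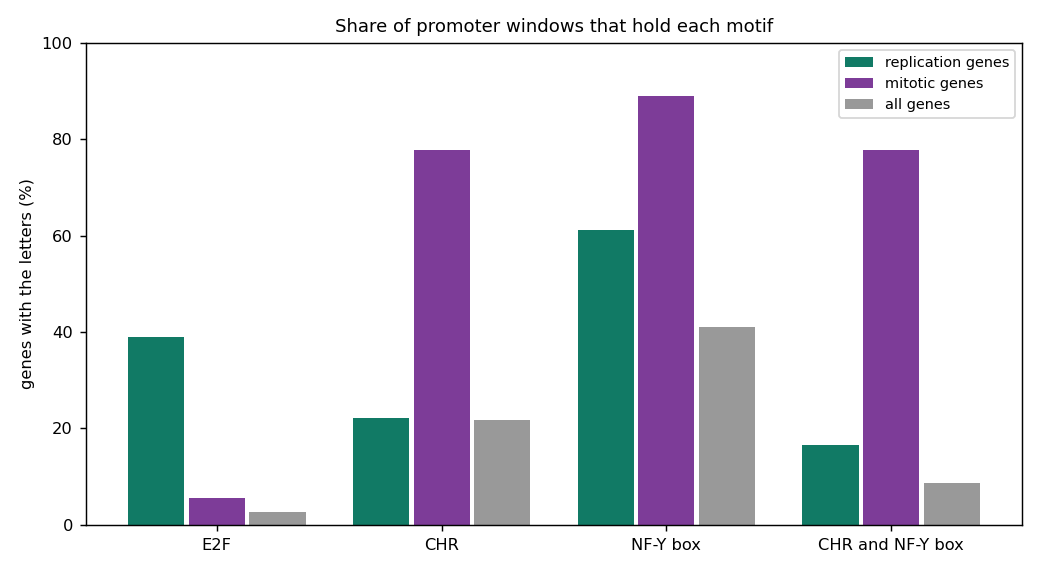
Share of genes, in percent, with a listed promoter that holds E2F letters, CHR letters, the NF-Y box (CCAAT) or CHR letters with that box. Bars are for 18 replication genes, 18 mitotic genes and all 27025 genes of the RefSeq table. The replication bar is the highest for E2F letters at 38.9%, and the mitotic bar is the highest for CHR letters with the NF-Y box at 77.8%.

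Levels between genes were compared per length, as the TPM values deposited by the authors, which take transcript length into account. Pcna, the sliding clamp of DNA polymerase, had the highest mean over all libraries, 649.6 TPM. Ube2c followed with 311 TPM, then Cdc20 with 160.2 TPM, Mcm7 with 145 TPM, Birc5, which encodes survivin, with 139.8 TPM and Top2a with 126 TPM. The lowest means belonged to Ung, a uracil glycosylase that repairs DNA, at 12.4 TPM, to the thymidylate synthase gene Tyms at 14.2 TPM and to Ccne2 at 15.4 TPM. These 3 are replication genes. Mki67, the gene of the proliferation marker Ki-67, changed its place: it ranked 26 of 44 by mean TPM in tumors, 38 in purified cells and 40 in culture.

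In whole tumors the replication genes that changed were all higher in the knockout, while the mitotic genes that changed went both ways and the changes were small. Of 22 replication genes, 6 rose in knockout tumors and 0 fell, against 18.1% and 19% of all 13752 genes tested (edgeR's quasi-likelihood test with Benjamini-Hochberg adjustment, threshold 0.05). Of 22 mitotic genes, 2 rose and 2 fell. The count of higher replication genes is near that background, so it is no result about the set. Called genes differed in transcript length: the 8 higher genes were listed at 1038 to 2860 bases and the 2 lower ones at 3670 and 4819 bases. Across the 44 genes Spearman's rho of the log2 fold change with length was -0.34, and across all 13752 genes tested it was -0.31, a description over genes that share the same libraries. The part of length in these calls was not tested. The median log2 fold change, knockout over control, was 0.056 for replication genes and -0.023 for mitotic genes, beside 0.0092 for all genes tested. For all 44 genes the values of knockout and control tumors overlapped, and of all genes tested 9.2% did not overlap.

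Ccne1, the E cyclin that activates Cdk2 for S phase entry, had 25.3, 26.8 and 37.7 CPM as the lowest, median and highest of 7 knockout tumors, against 18.7, 21.97 and 26.1 CPM in 8 control tumors. Its log2 fold change was 0.37 ± 0.093 (SE, adjusted p = 0.00402, edgeR). In all, 5 of the knockout tumors lay above every control tumor. Gins2, a subunit of the GINS complex that works with the helicase at the fork, had 37.1, 39.6 and 42.9 CPM in knockout tumors and 28.9, 34.2 and 37.8 CPM in control tumors. Its log2 fold change was 0.24 ± 0.058 (SE, adjusted p = 0.00318, edgeR), and 6 knockout tumors lay above all control tumors. Ung had 13.6, 15.4 and 17.4 CPM in knockout tumors and 11.7, 12.5 and 15.05 CPM in control tumors, again with 6 of 7 above all controls (log2 fold change 0.29 ± 0.079, adjusted p = 0.00711, edgeR).

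Slbp, which binds the stem-loop of histone mRNA, had 119.9, 131 and 146 CPM in knockout tumors and 84.0, 112 and 125 CPM in control tumors (log2 fold change 0.29 ± 0.071, adjusted p = 0.00343, edgeR), with 5 knockout tumors above all controls. Pcna and Fen1, the flap endonuclease of lagging-strand synthesis, were the weakest of the calls. Pcna had 522, 567.9 and 604 CPM in knockout tumors and 364, 484 and 618 CPM in control tumors, so no knockout tumor exceeded the highest control (log2 fold change 0.21 ± 0.081, adjusted p = 0.0453, edgeR). Fen1 had 45.7, 51.0 and 63.2 CPM in knockout tumors and 43.5, 46.8 and 52.4 CPM in control tumors (log2 fold change 0.20 ± 0.070, adjusted p = 0.0308, edgeR). None of the 6 MCM genes, which encode the ring of the replicative helicase, was called, and their log2 fold changes ran only between -0.081 and 0.15. The reductase genes Rrm1 and Rrm2 and Tyms were not called either, with log2 fold changes between -0.064 and 0.10.

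Among mitotic genes Cdk1, the kinase that drives entry into mitosis, rose most. It had 134, 147 and 173 CPM in knockout tumors and 94.2, 126 and 135 CPM in control tumors, with 6 of 7 knockout tumors above every control (log2 fold change 0.33 ± 0.070, adjusted p = 0.00120, edgeR). Birc5 had 70.5, 86.3 and 95.3 CPM in knockout tumors and 66.8, 74.4 and 77.7 CPM in control tumors (log2 fold change 0.24 ± 0.062, adjusted p = 0.00595, edgeR). Bub1b, which encodes the checkpoint protein BubR1, went the other way: it had 59.7, 78.5 and 91.3 CPM in knockout tumors and 88.9, 95.9 and 113 CPM in control tumors. Its log2 fold change was -0.31 ± 0.073 (SE, adjusted p = 0.00293, edgeR), and 6 knockout tumors lay below all controls. Kif11, the kinesin that pushes spindle poles apart, had 78.3, 95.9 and 108 CPM in knockout tumors and 99.3, 108 and 123 CPM in control tumors (log2 fold change -0.19 ± 0.064, adjusted p = 0.0265, edgeR). The partners of Cdk1 were not called. Ccnb1 had medians of 164 CPM in knockout tumors and 157 CPM in control tumors. Ccna2 had medians of 197 CPM in knockout tumors and 219 CPM in control tumors. For Ccna2, 5 of 7 knockout tumors lay below every control tumor and 1 lay above every control tumor. In the authors' deposited table for tumors Ccna2 was lower in the knockout (adjusted p = 0.00206, DESeq2). Mki67 had medians of 309 CPM in both.

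**Figure D2:**
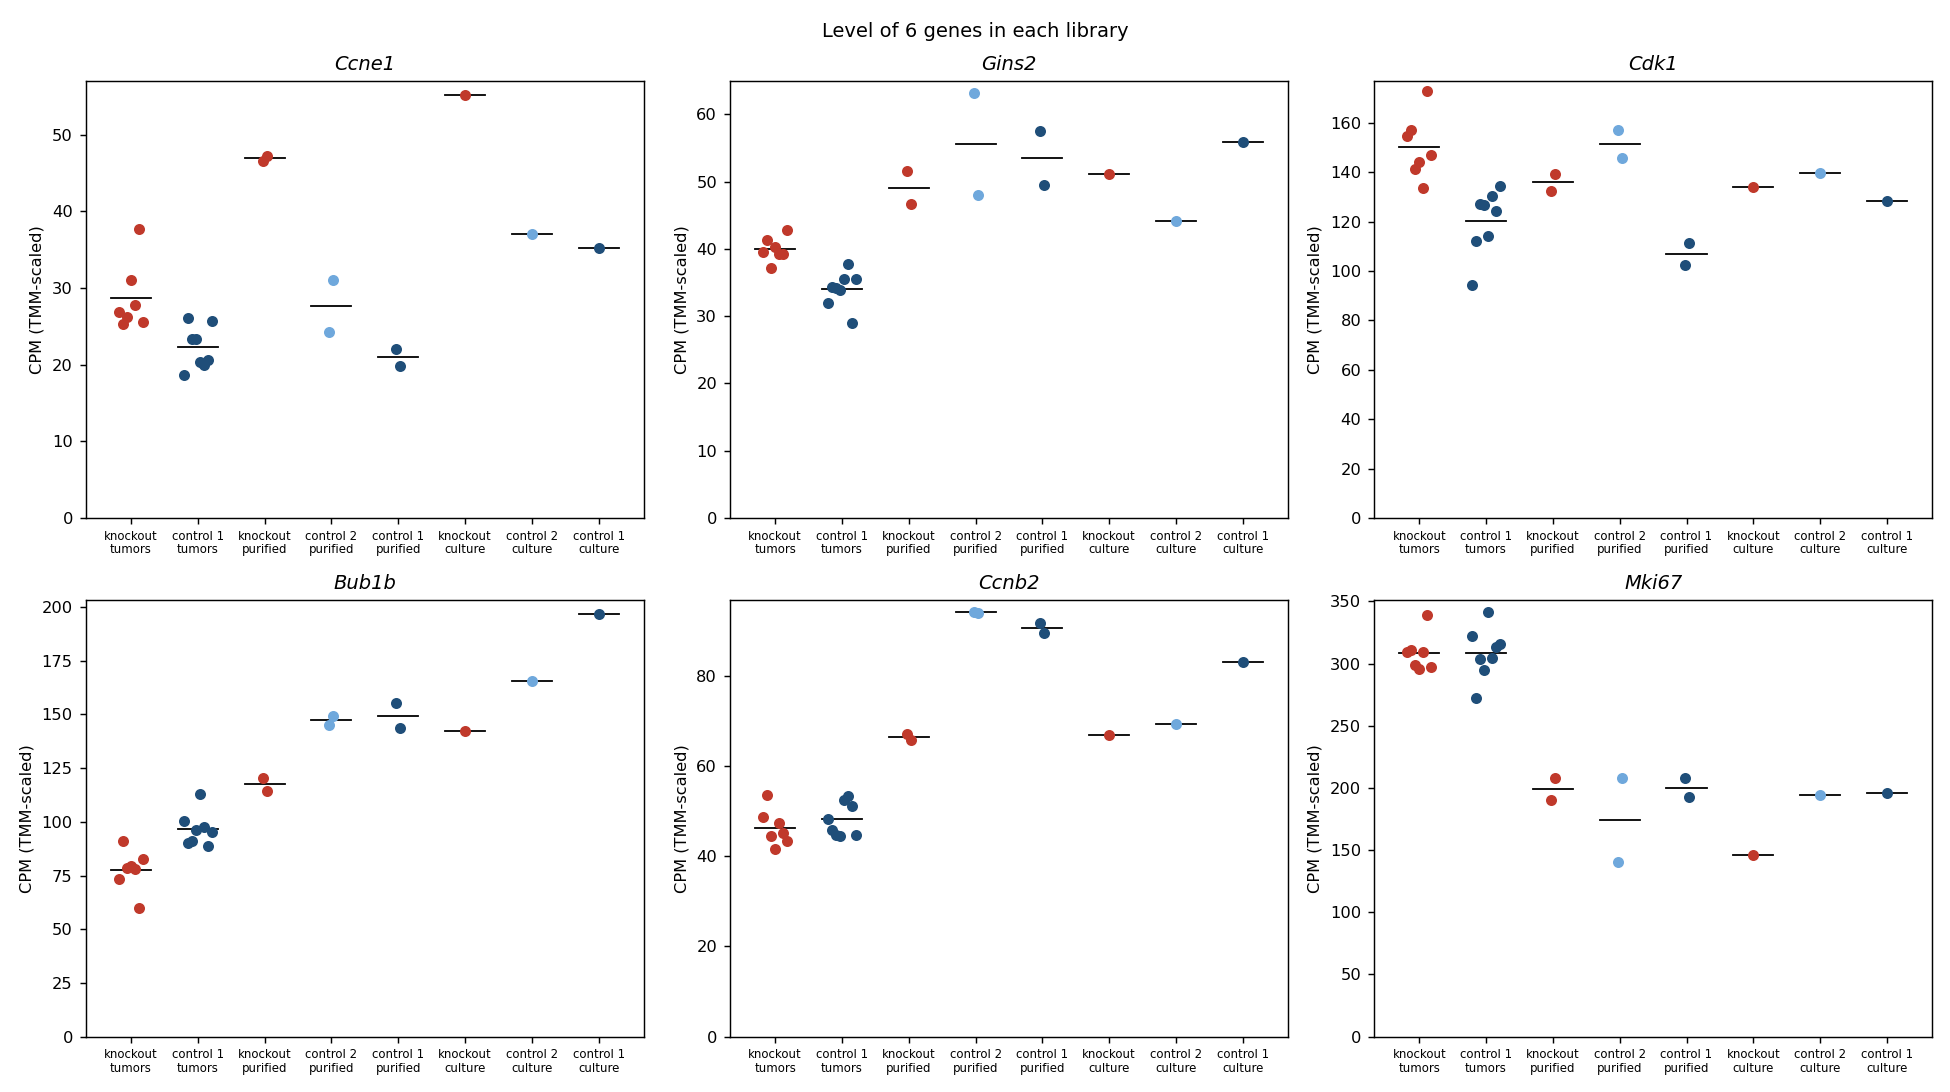
CPM of Ccne1, Gins2, Cdk1, Bub1b, Ccnb2 and Mki67 in each library (points) with the group mean (line), by line and setting. Ccne1 lies at 46.6 and 47.2 CPM in purified knockout cells, above the 19.9 to 31.1 CPM of purified control cells, while knockout and control tumors overlap for all 6 genes.

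The host cell markers Ptprc and Pecam1 differed with the genotype of the tumors. Ptprc, the pan-leukocyte gene, averaged 188 ± 33.0 CPM over 7 knockout tumors and 123 ± 25.3 CPM over 8 control tumors (± SD). Pecam1, an endothelial gene, averaged 50.1 ± 5.47 CPM in knockout tumors and 34.9 ± 3.58 CPM in control tumors (SD, n = 7 and 8). The mean log2 CPM of these 2 markers was 6.40 to 6.84 in knockout tumors and 5.62 to 6.20 in control tumors, with no overlap. With that mean as a covariate 0 replication and 0 mitotic genes were called, and 196 genes in all, 0.284% of those tested as higher and 1.14% as lower. The log2 fold changes of the 10 genes then ranged from -0.40 for Bub1b to 0.43 for Ccne1, with adjusted p of 0.262 to 0.942 in edgeR. Since the covariate separates the genotypes fully, host content as measured by these 2 markers and genotype cannot be told apart in these tumors. Sums over longer marker lists overlapped between the genotypes. The 12 leukocyte markers summed to 451 to 951 CPM in knockout tumors and 322 to 779 CPM in control tumors. The 6 endothelial markers summed to 75.2 to 120 CPM in knockout tumors and 61.6 to 80.6 CPM in control tumors. In bulk tissue fewer cells of a type and less RNA per cell cannot be told apart.

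Purified tumor cells, in which Ptprc and Pecam1 were at 2.26 CPM or less, gave another short list, with Ccne1 up and the cyclins Ccna2 and Ccnb2 down. The 6 fibroblast markers were not low there, with sums of 991 to 2190 CPM against 286 to 556 CPM in culture. Dpt, under 1 CPM on average in each culture, averaged 1 CPM or more in each purified group. Lum did so in the knockout and control line 1 only, and Fap in no purified group. The part of host fibroblasts was not tested. Of 22 replication genes 1 rose and 0 fell in knockout cells, and of 22 mitotic genes 0 rose and 2 fell, against 2.26% higher and 2.29% lower among all 12476 genes tested (edgeR, as above, with both control lines in 1 arm). The median log2 fold change was -0.16 for replication genes and -0.044 for mitotic genes, beside -0.015 for all genes. Ccne1 had 46.6 and 47.2 CPM in knockout cells, 24.3 and 31.1 CPM in control line 2, and 22.1 and 19.9 CPM in control line 1. Both knockout libraries lay above all 4 control libraries, with a fold change of 1.93 (log2 0.95 ± 0.173, adjusted p = 0.0176, edgeR).

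Ccna2, the cyclin of S phase and early mitosis, had 217.1 and 216.6 CPM in knockout cells, 321 and 319 CPM in control line 2, and 282 and 285 CPM in control line 1, with no overlap. It was 1.38-fold lower in the knockout (log2 fold change -0.47 ± 0.110, adjusted p = 0.0457, edgeR). Ccnb2, a B cyclin that pairs with Cdk1, had 67.1 and 65.8 CPM in knockout cells, 94.3 and 93.9 CPM in control line 2, and 91.8 and 89.4 CPM in control line 1, also with no overlap (log2 fold change -0.47 ± 0.099, adjusted p = 0.0329, edgeR). Ccnb1, the other B cyclin of the set, lay within the controls: 186 and 187 CPM in knockout cells, 194 and 205 CPM in control line 2, and 173 and 174 CPM in control line 1. Next in order came genes that were not called. Cdc20 had 262 and 265 CPM in knockout cells, 326 to 369 CPM in control line 2 and 386 to 415 CPM in control line 1 (log2 fold change -0.50, adjusted p = 0.0524, edgeR). The spindle gene Nusap1 had a log2 fold change of -0.45 and the helicase gene Mcm3 one of -0.39. In all, the knockout libraries lay apart from the control libraries for 16 uncalled genes beside the 3 called, 1 of the 19 higher and 18 lower, where 16.5% of all 12476 genes lay apart as higher and 18.1% as lower.

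The count of calls in purified cells depended on how the control lines entered the test. With the lines as separate groups 8 replication genes were called, 1 higher and 7 lower in the knockout, and 7 mitotic genes were called, all lower, against 10.5% higher and 10.1% lower among all 12476 genes in that fit. The 7 lower replication genes were Mcm3, Mcm6, Cdc45, Rfc2, Uhrf1, Rrm1 and Tyms, and the lower mitotic genes were Ccna2, Ccnb2, Bub1, Bub1b, Kif23, Nusap1 and Cdc20. Left without either knockout library, 0 genes of both sets were called, with an adjusted p of up to 0.201 for Ccne1 (edgeR). In the authors' deposited table for purified cells, with its direction read from Sun1, 1 replication gene was higher and 2 were lower in the knockout, and 0 mitotic genes were higher and 5 were lower, beside 4.74% and 5.19% of all genes with an adjusted p there. In the authors' deposited table for tumors these counts were 7 and 0 for replication genes and 2 and 3 for mitotic genes, beside 14.6% and 14.2%.

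The control lines also differed from each other. In purified cells of control line 2 against control line 1, 4 replication and 3 mitotic genes were higher and 0 were lower, beside 6.73% of all genes higher and 9.01% lower (edgeR, 12476 genes). Ube2c had 233 and 238 CPM in control line 2 and 157 and 173 CPM in control line 1 (log2 fold change 0.52, adjusted p = 0.00409, edgeR), while purified knockout cells had 204 and 215 CPM (lowest and highest). Cdk1 had 146 and 157 CPM in control line 2 and 103 and 111 CPM in control line 1 (log2 fold change 0.51, adjusted p = 0.00488, edgeR). The knockout, at 133 and 139 CPM, lay between these lines, as did Fen1 at 55.9 and 56.7 CPM in knockout cells, 60.2 and 61.9 CPM in control line 2, and 38.0 and 48.3 CPM in control line 1. The other genes called were Cdc6, Cdc45, Chaf1b and Aurka, of which Cdc6 and Aurka lost their calls in 8 of 8 alternatives, with adjusted p of up to 0.294 and 0.328 (edgeR), and Cdc45 in 4 of 8. Of the 44 genes 36 had a positive log2 fold change, and the medians were 0.19 for replication genes and 0.15 for mitotic genes, beside 0.0029 for all genes. Without control line 1 replicate 2 there were 0 calls among replication genes, and without control line 1 replicate 1 there were 0 among mitotic genes.

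In culture, where each line has 1 library, the knockout library was low for nearly every gene of both sets, and no gene passed the test. Of 44 genes 42 had a negative log2 fold change, with medians of -0.33 for replication genes and -0.36 for mitotic genes beside -0.0089 for all genes. Of all 12175 genes tested 0% were called higher and 0% lower by edgeR, which had 1 residual degree of freedom here, 659 genes had an unadjusted p under 0.05, and DESeq2 called 44 genes in all and 0 of these 2 sets. Mcm3 measured 155 CPM in the knockout, 229.9 CPM in control line 2 and 270.3 CPM in control line 1. Cenpf, a kinetochore gene, measured 129.5 CPM in the knockout, 185 CPM in control line 2 and 236 CPM in control line 1, and Ccna2 measured 181 CPM in the knockout, 289 CPM in control line 2 and 281 CPM in control line 1. The knockout was the lowest of the 3 libraries for each. Ccne1 was the exception, with 55.2 CPM in the knockout, 37.1 CPM in control line 2 and 35.3 CPM in control line 1 (log2 fold change 0.60, adjusted p = 0.902, edgeR). Ccne1 was thus above both control lines in the cultured and in the purified knockout libraries. Gins2 had the other positive value, a log2 fold change of 0.021.

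**Figure D3:**
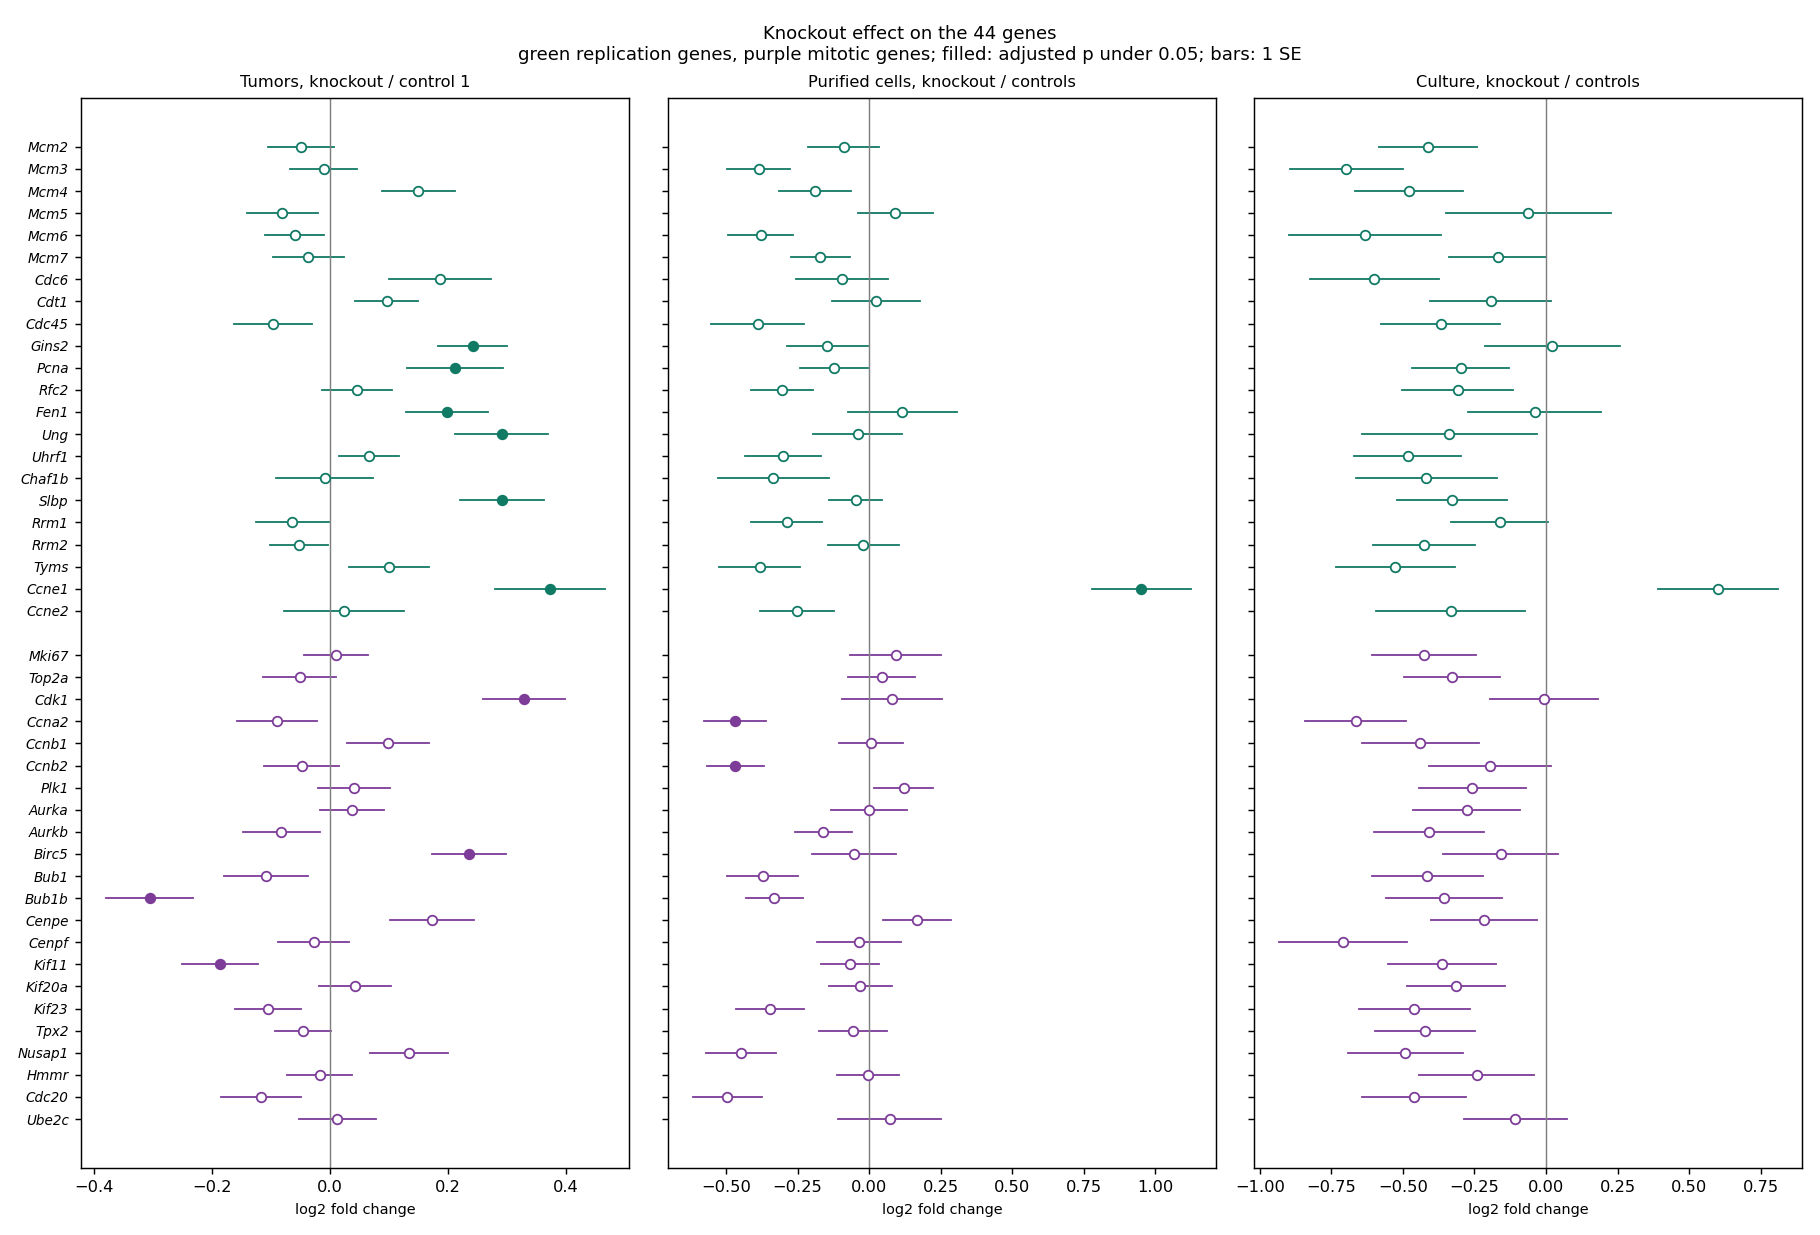
Log2 fold change of each of the 44 genes, knockout over control, in tumors, purified cells and culture; bars are 1 SE and filled points have an adjusted p under 0.05. Filled points number 10 in tumors, 3 in purified cells and 0 in culture, where 42 of 44 points lie left of 0.

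The knockout difference itself was compared between tumors and purified cells, with control line 1 in both. It differed for 3 replication and 2 mitotic genes: 2 and 2 were higher in tumors and 1 and 0 lower, beside 4.82% of all 15033 genes higher and 5.27% lower (edgeR, interaction of line and setting). For Ccne1 the group means were 28.6 CPM in knockout tumors and 22.3 CPM in control tumors, and 46.9 CPM in purified knockout cells and 21.0 CPM in purified control line 1 cells. The difference on the log2 scale was -0.80 ± 0.192 (adjusted p = 0.0101, edgeR), a smaller knockout excess in tumors. For Cdc20 the means were 127 and 139 CPM in knockout and control tumors, and 264 and 400.4 CPM in purified knockout and control line 1 cells (log2 difference 0.48, adjusted p = 0.0291, edgeR). Nusap1, Mcm6 and Ung were the others, with log2 differences of 0.48, 0.37 and 0.50. Left without 1 purified library, 1 replication gene and 0 mitotic genes were called in each case.

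Whole tumors had less of most of these transcripts than purified tumor cells of the same line, in both lines. The labels do not say whether the purified cells came from the tumors sequenced whole. In the knockout, 15 replication genes were lower and 2 higher in tumors, and 12 mitotic genes were lower and 3 higher, against 25.7% lower and 31.6% higher among all 15033 genes (edgeR). In control line 1, 16 replication genes were lower and 0 higher, and 13 mitotic genes were lower and 2 higher, against 23.9% lower and 29.6% higher. The median log2 fold changes in the knockout were -0.29 for replication genes and -0.35 for mitotic genes, beside 0.092 for all genes. In control line 1 they were -0.50 and -0.37, beside 0.069. All 6 MCM genes fell in both lines. Mcm2 had 127, 145 and 159 CPM as the lowest, median and highest of knockout tumors, against 255 and 264 CPM in purified knockout cells (log2 fold change -0.83, adjusted p = 1.80e-08, edgeR).

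Among mitotic genes of the knockout, Plk1, Cdc20 and Aurkb fell furthest. Plk1, the polo-like kinase, had 60.5, 61.4 and 70.0 CPM in knockout tumors and 129 and 139.6 CPM in purified knockout cells (log2 fold change -1.08, adjusted p = 3.79e-10, edgeR). Cdc20 had 103, 128 and 143 CPM in knockout tumors and 262 and 265 CPM in purified knockout cells. In control line 1 Cdc20 had 118, 138 and 156 CPM in tumors and 386 and 415 CPM in purified cells (log2 fold change -1.51, adjusted p = 6.28e-12, edgeR). No tumor of either line reached the level of the purified cells of its line for these genes. Aurkb, the kinase of the chromosomal passenger complex, fell by 0.83 on the log2 scale in the knockout and by 0.84 in control line 1.

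Mki67 had the largest rise in tumors over purified cells among the 44 genes in both lines. It had 295.5, 309 and 339 CPM in knockout tumors, against 189.9 and 208 CPM in purified knockout cells (log2 fold change 0.66 ± 0.085, adjusted p = 5.47e-07, edgeR). In control line 1 it had 272, 309 and 341 CPM in tumors, against 193 and 208 CPM in purified cells (log2 fold change 0.64 ± 0.084, adjusted p = 7.89e-07, edgeR). All tumors of each line lay above the purified cells of that line. Cenpf also rose in tumors of both lines, with log2 fold changes of 0.41 in the knockout and 0.27 in control line 1. Nusap1, Slbp and Ccne2 rose in knockout tumors over purified knockout cells, with log2 fold changes of 0.31, 0.30 and 0.40. These 3 calls, and that of Cenpf in control line 1, were lost when either purified library of the line was left out. Ccne1 fell in knockout tumors by 0.69 on the log2 scale and was not called in control line 1, at 0.11. Cenpf and Mki67 have the longest transcripts of the 44, listed at 10713 and 9564 bases, and across the 44 genes Spearman's rho of the tumor over purified log2 fold change with length was 0.23 in the knockout and 0.27 in control line 1, beside -0.064 and 0.055 across all genes tested. Genes are not independent replicates, the comparisons share their libraries between genes, and the part of length in the result was not tested. Beside leukocyte transcripts, tumors carried 6 endothelial markers, which summed to 75.2 to 120.0 CPM in knockout tumors and 61.6 to 80.6 CPM in control tumors, against at most 1.69 CPM in purified cells. The 6 fibroblast markers summed to 933 to 1646 CPM in knockout tumors, 839 to 1473 CPM in control tumors and 991 to 2190 CPM in purified cells. In culture they summed to 394 CPM in the knockout, 286 CPM in control line 2 and 556 CPM in control line 1. Only Dpt, Lum and Fap were under 1 CPM there, so these sums are no measure of host fibroblasts alone. The part of host cells in the lower levels was not tested.

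**Figure D4:**
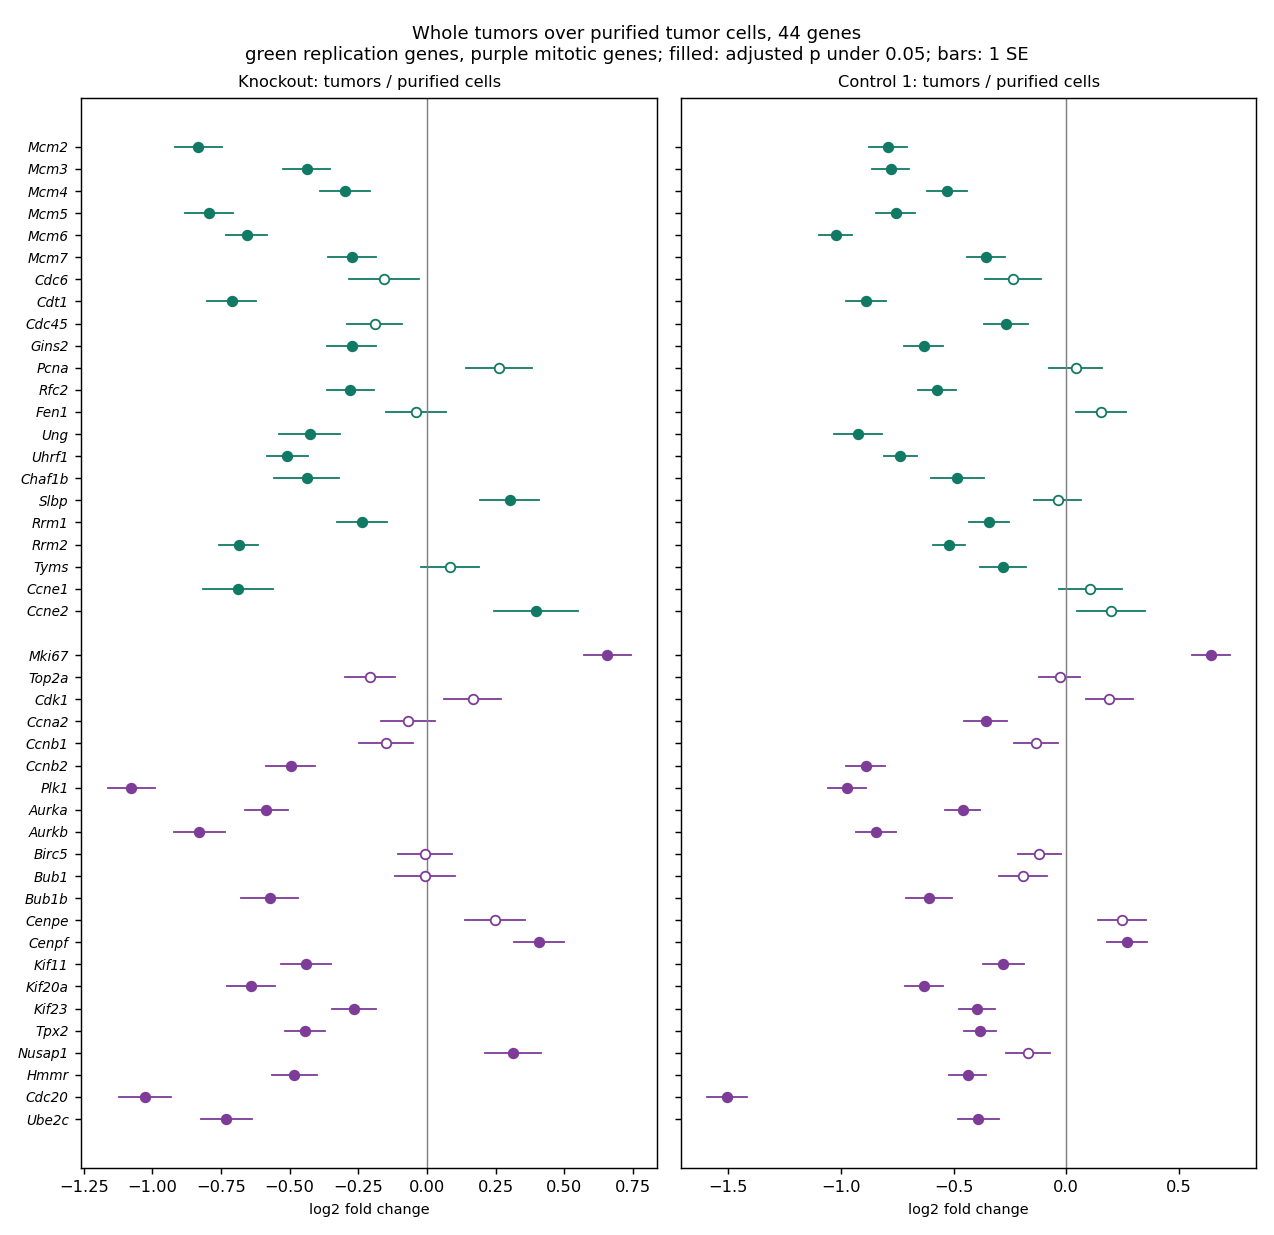
Log2 fold change of each of the 44 genes, whole tumors over purified cells, in the knockout and in control line 1; bars are 1 SE and filled points have an adjusted p under 0.05. In the knockout 27 genes are lower and 5 higher, in control line 1 29 are lower and 2 higher, and Mki67 lies furthest right in both, at 0.66 and 0.64.

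Between purified and cultured cells genes of both sets were called in both directions, and the lines did not move alike. Growth in a tumor and the separation of the cells cannot be told apart in this comparison. The mean log2 CPM of the replication genes in purified cells minus that in culture was 0.071 in the knockout, 0.034 in control line 2 and -0.22 in control line 1. For the mitotic genes it was 0.14 in the knockout, 0.0012 in control line 2 and -0.15 in control line 1. These differences rest on 1 cultured library a line and were not tested. With line as a covariate 3 replication genes were higher and 3 lower in purified cells, and 4 mitotic genes were higher and 3 lower, against 22.6% higher and 21.7% lower among all 12287 genes (edgeR). The medians were -0.019 for replication genes and -0.0030 for mitotic genes, beside 0.0093 for all genes. Cdc20 had 262 and 265 CPM in purified knockout cells against 206 CPM in knockout culture, 326 and 369 CPM in purified control line 2 against 268 CPM in its culture, and 386 and 415 CPM in purified control line 1 against 296 CPM in its culture. Purified cells were higher in each line (log2 fold change 0.40, adjusted p = 0.00103, edgeR). Nusap1, Kif20a, Kif11, Cdc45, Rfc2 and Uhrf1 were also higher, with log2 fold changes of 0.22 to 0.42. Kif11 and Rfc2 each lost their call in 7 of 10 alternatives and Uhrf1 in 5. Kif20a and Cdc45 each lost theirs in 1, and Nusap1 in 0. Aurka, the kinase of the spindle poles, was lower, at 102 and 105 CPM in purified knockout cells against 123 CPM in knockout culture (log2 fold change over the lines -0.42, adjusted p = 0.00234, edgeR). Ccne1, Cdt1, Bub1, Rrm1 and Bub1b were the others that fell, by 0.45, 0.35, 0.32, 0.28 and 0.27 on the log2 scale. With control line 2 left out 2 replication genes were called, and with control line 1 left out 4 mitotic genes.

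Means over each set put the sets side by side. The mean log2 CPM of the 22 replication genes was 6.22 ± 0.052 over 7 knockout tumors and 6.15 ± 0.067 over 8 control tumors (± SD). For the 22 mitotic genes it was 6.94 ± 0.048 in knockout tumors and 6.95 ± 0.065 in control tumors. The replication mean minus the mitotic mean was -0.71 ± 0.050 in knockout tumors, with a range of -0.78 to -0.63, and -0.80 ± 0.061 in control tumors, with a range of -0.86 to -0.71, so the groups overlapped. In purified cells this difference was -0.68 in the knockout, -0.67 in control line 2 and -0.70 in control line 1. In culture it was -0.61 in the knockout, -0.70 in control line 2 and -0.63 in control line 1. The replication mean itself was 6.57 in purified knockout cells, 6.76 in control line 2 and 6.61 in control line 1, and 6.49 in cultured knockout cells, 6.73 in control line 2 and 6.83 in control line 1. These means are a description and were not tested.

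**Figure D5:**
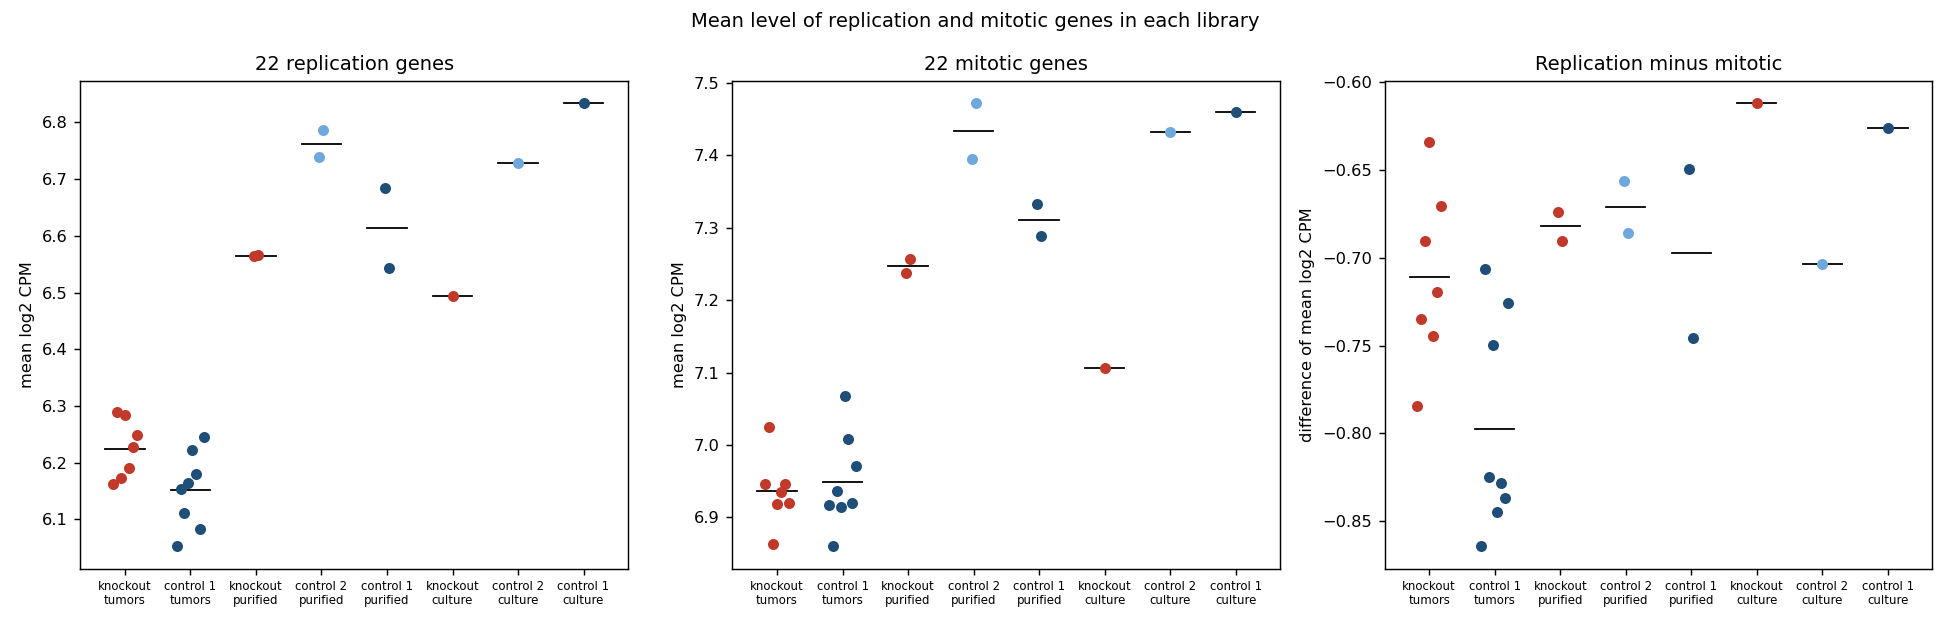
Mean log2 CPM of the 22 replication genes, of the 22 mitotic genes, and the replication mean minus the mitotic mean, in each library (points) with the group mean (line). Tumors lie lowest for both sets, at about 6.22 and 6.15 for replication genes in knockout and control tumors, and the difference overlaps between knockout and control tumors.

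Other genes of the same pathways were called in both directions in tumors, where 18.1% of all genes were higher and 19% lower. A count near those shares is no result about its list. The alternatives were followed for the 44 genes only, so how the calls of these other genes depend on them is not known. Here too, host content by Ptprc and Pecam1 and genotype cannot be told apart. Of 38 further origin and fork genes 12 rose and 4 fell in knockout tumors (edgeR). Orc2, a subunit of the origin recognition complex, rose by a log2 fold change of 0.43 (adjusted p = 9.64e-05, edgeR) and Rpa3, which covers single-stranded DNA, by 0.46. Of 47 further mitotic genes 8 rose and 12 fell, among them Ect2 and Espl1, which encode the activator of the cytokinetic ring and separase, with log2 fold changes of -0.38 and -0.35. Of 11 further nucleotide genes 2 rose and 2 fell, with Dtymk at 0.28 and Cad at -0.40. Of 20 regulators of G1 and S phase 3 rose and 3 fell, with E2f3 at 0.37 and Rb1, the retinoblastoma gene, at -0.47. Of 14 regulators of G2 and mitosis 1 rose, Lin9 of the MuvB complex at 0.30, and 2 fell, one of them the phosphatase gene Cdc25b at -0.37. Of 8 genes in a list named arrest and quiescence 4 rose and 2 fell, with Gas1 at 1.07 and Ccng2 at -0.41. Gas1 measured 2.79 to 7.05 CPM in knockout tumors and 1.16 to 3.51 CPM in control tumors, and at most 0.158 CPM in purified cells.

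In purified knockout cells few of these genes were called, beside 2.26% higher and 2.29% lower among all genes, and counts of 1 or 2 genes at such shares are no result about a list. Orc2 rose there too, at 116.4 and 117.4 CPM in the knockout, 82.6 and 88.6 CPM in control line 2, and 69.2 and 84.5 CPM in control line 1 (log2 fold change 0.53, adjusted p = 0.0406, edgeR). Prim2, a primase subunit, fell, at 34.7 and 35.8 CPM in the knockout, 53.0 and 57.5 CPM in control line 2, and 50.5 and 54.7 CPM in control line 1 (log2 fold change -0.61, adjusted p = 0.0197, edgeR). These were the 2 calls among 38 origin and fork genes. The genes of these lists were not followed under the alternatives, so how their calls depend on single libraries is not known. Of 47 mitotic genes 0 rose and 2 fell, Melk at -0.53 and Ect2 at -0.50. Ccnd2, a D cyclin of G1, was the 1 gene called of 20 regulators of G1 and S phase, with 301 and 319 CPM in the knockout, 155 and 163 CPM in control line 2, and 208 and 213 CPM in control line 1 (log2 fold change 0.76, adjusted p = 0.0226, edgeR). Tob1, an antiproliferative gene, rose by 0.80 on the log2 scale. Of the Cdk inhibitors 4 of 7 could be tested in each setting, Cdkn1a, Cdkn1b, Cdkn2c and Cdkn2d, and 0 were called for the knockout in tumors or in purified cells.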

How the data were processed

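Per the labels' protocols, mRNA was enriched from total RNA extracted with Trizol and sequenced in pairs of reads on an Illumina platform. The submitters' processing notes name FastQC, STAR, RSEM and DESeq2 and the mm10 build, with no version. Each library has a gene table from RSEM, deposited by the authors, that holds the expected count, TPM and lengths of each gene, per the file headers. The authors also deposited DESeq2 tables with a log2 fold change and an adjusted p-value for each comparison. Their direction is not stated in the headers, and Sun1 is positive in all of them, which reads as control over knockout.

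The labels gave a group to each of the 24 libraries. The members and all gene lists were chosen with earlier results of these data known. Expected counts were rounded to whole numbers, of which 95.6% already were whole. The test was edgeR's two-sided quasi-likelihood F test (version 4.0.16, R 4.3.3), fitted with robust dispersions after TMM scaling and a filter by filterByExpr with a minimum count of 10 and a minimum total of 15. P-values were adjusted by Benjamini-Hochberg over all genes tested, with a threshold of 0.05. All 44 genes passed the filter in every comparison. Each fit used only its own libraries. A fold change has the group named first on top. CPM values in the text were scaled by TMM across the 24 libraries together, and means of log2 CPM used a prior count of 2. Alternatives were DESeq2 1.42.0, RLE scaling, no filter, a replicate block, host content as a covariate, other control arms, each line left out, each replicate left out, CPM without TMM and a shorter promoter window of 150 bases before the start. The steps were also run on simulated data with a fixed dispersion and with changes larger than those called among the 44 genes in tumors. That run checked the code and does not show how well changes as small as those are found. Named from each other cell cycle list are the 2 genes of smallest p in tumors and the 2 in purified cells, if called. Every Cdk inhibitor tested is named, and so are the arrest and quiescence genes called between purified and cultured cells. Counting error is small at these depths beside the spread between libraries: the lowest chi-square per gene between replicates was 7.38, and no library was counted as a repeat of another. The replicate numbers were not used as pairs in the main tests, and a batch is not given in the labels.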

Additional observations from a re-analysis of the deposited data

Results flagged for a closer look

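Single tumors stood apart from the rest of their group for 9 of the 44 genes, in a test of the gap to the nearest tumor over the whole range. It was run 94 times, and chance alone gives about 5% such cases. Knockout tumor 6 was highest for Mcm4 (129 CPM, next 109 CPM), Mki67 (339 CPM, next 311 CPM) and Ccna2 (262 CPM, next 207 CPM), and lowest for Cdc20 (103 CPM, next 128 CPM). Knockout tumor 5 was highest for Plk1 (70.0 CPM, next 62.2 CPM), knockout tumor 2 was highest for Kif20a (279.7 CPM, next 246 CPM), and knockout tumor 3 was lowest for Nusap1 (72.1 CPM, next 85.9 CPM). Control tumor 7 was lowest for Mcm6 (139.8 CPM, next 158 CPM), and control tumor 5 was highest for Bub1b (113 CPM, next 100.3 CPM).

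The interaction of line and setting in edgeR was looked up for the 44 members and the other genes chosen for naming. The knockout difference differed between tumors and purified cells for 12 of them. Of all 15033 genes tested 4.82% were higher and 5.27% lower. Most of the other genes had been chosen for a small p in the tumor or purified comparison, so their count is no result about the lists. For the members the log2 differences, tumors minus purified cells, were 0.37 for Mcm6, 0.50 for Ung, -0.80 for Ccne1, 0.48 for Nusap1 and 0.48 for Cdc20. For the other genes they were 0.69 for Rpa3, 0.49 for Prim2, 0.66 for Dtymk, 0.72 for Melk, 0.57 for Cdkn2c, -0.91 for Cdkn1a and -0.69 for Tob1. The adjusted p was lowest for Cdkn1a, at 0.00110, with means of 132 and 139 CPM in knockout and control tumors, and 231 and 129 CPM in purified knockout and control line 1 cells. Purified control line 2 cells, which this contrast does not hold, had 262 CPM.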

How the results depend on the processing

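No gene of the 2 sets that was called in its main comparison changed direction under any alternative that was run. Some genes not called there did change sign, such as 8 in tumors with host content as a covariate. With host content as a covariate 0 replication genes (6 without it) and 0 mitotic genes (4 without it) were called in tumors. Leaving out 1 tumor gave 4 to 7 replication and 3 to 6 mitotic genes. In purified cells, where 1 replication and 2 mitotic genes were called, DESeq2 called 3 and 5, control line 1 by itself gave 4 and 7, control line 2 by itself 7 and 6, and the control lines as separate groups 8 and 7. Leaving out 1 library gave 0 to 1 replication and 0 to 1 mitotic genes, with 0 of both without knockout replicate 1 or knockout replicate 2. Between the control lines, with 4 and 3 called, leaving out 1 library gave 0 to 4 and 0 to 5: without control line 1 replicate 2 there were 0 replication genes, and without control line 1 replicate 1 there were 2 replication and 0 mitotic genes. For purified against cultured cells, with 6 and 7 called, 2 replication genes were left without control line 2 and 4 mitotic genes without control line 1, and leaving out 1 library gave 4 to 7 and 6 to 7. For tumors against purified cells leaving out 1 library gave 14 and 14 in the knockout, and 13 to 14 and 13 to 14 in control line 1. For the interaction, with 3 and 2 called, DESeq2 gave 5 replication genes, and leaving out 1 library gave 1 replication gene and 0 mitotic genes each time. The causes were not tested.

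Correlations of same-numbered tumors ran from -0.11 to 0.22, and no knockout tumor correlated best with the control tumor of its number. Those of purified libraries ran from -0.06 to 0.07. With 2 libraries a group, they cannot show whether the numbers pair the samples. A replicate block gave 6 and 3 calls in tumors, 1 and 0 in purified cells and 3 and 2 between control lines. In purified cells Ccna2 lost its call in 7 of 13 alternatives and Ccnb2 in 6 of 13. Of the tumor calls, Pcna was lost in 13 of 20 alternatives, Fen1 in 6 and Kif11 in 5, and each of the other 7 in 1, with host content as a covariate. The calls of Cdc6 and Aurka between control lines were lost in 8 of 8. With 150 bases before the start the share of all genes with E2F letters was 1.91%, and for replication genes it was 33.3%.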

Other observations

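Of the 4 Cdk inhibitors tested, which hold cells back from dividing, 3 were higher in purified than in cultured cells and 1 was lower (edgeR, with line as a covariate). Of all 12287 genes 22.6% were higher and 21.7% lower. Each line has 1 cultured library, and growth in a tumor and the separation of the cells cannot be told apart here. The genes of this section were not followed under the alternatives. Of 7 genes tested from the list named arrest and quiescence 3 were higher, Cdkn3, Ccng2 and Sesn1, and 2 were lower, Btg2 and Tob1. The list is a chosen grouping, and a rise of a member such as Cdkn3 is no measure of arrest. Cdkn2c, which encodes the inhibitor p18, had 93.3 CPM as the mean of 2 purified knockout libraries against 35.7 CPM in knockout culture, 91.3 CPM in purified control line 2 against 54.2 CPM in its culture, and 147 CPM in purified control line 1 against 69.5 CPM in its culture (log2 fold change 1.08, adjusted p = 9.45e-06, edgeR). Cdkn1b and Cdkn2d had log2 fold changes of 0.60 and 0.45. Cdkn1a, which encodes p21, was lower, with a log2 fold change of -0.33 (adjusted p = 0.00456, edgeR). Between purified control lines Cdkn1a was higher in control line 2 than in control line 1, with means of 262 CPM and 129 CPM (log2 fold change 1.04, adjusted p = 4.93e-05, edgeR), and purified knockout cells had 231 CPM.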
